A study of Sus scrofa with 9 samples.

Results

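Muscle stores glucose as glycogen and burns it by glycolysis, and the genes described here are 10 enzymes of that route, chosen by name: the glycogen enzymes PYGM, GYS1 and PHKG1 and the glycolytic enzymes PFKM, ALDOA, TPI1, GAPDH, PGAM2, ENO3 and LDHA. A probe set counted as a member where the platform annotation gives it that gene as its only symbol. This found 9 probe sets for 8 of the 10 genes, out of 27558 probe sets and 12361 named genes on the array. PFKM and ALDOA had no such probe set and are not analysed here. PHKG1 had a pair of probe sets, and the brighter of them stands for the gene.

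In fast muscle, glycogen phosphorylase cuts glucose units from glycogen when phosphorylase kinase switches it on, and glycogen synthase adds them back at rest. The glycolytic enzymes then turn the sugar phosphate into pyruvate, which lactate dehydrogenase reduces to lactate when oxygen delivery falls behind demand. The longissimus dorsi of the pig is largely a fast, glycolytic muscle, and the glycogen it holds at slaughter sets how far the meat acidifies afterwards.

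The samples were longissimus dorsi muscle of 9 male finishing pigs, with 1 whole-transcript array per pig. Starting from about 95 kg body weight, the pigs ate a lysine-deficient diet (pigs 1, 2 and 3), a lysine-adequate diet (pigs 5, 6 and 7) or a lysine-excess diet (pigs 9, 10 and 11) for 5 weeks. Breed, housing and the lysine content of each diet are not given in the labels, which say only that lysine was set with reference to the NRC requirements of swine. Each array measured whole muscle, so that fewer cells of a type and less RNA per cell cannot be told apart.

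Values are on a log2 scale, which was inferred from their range of 3.10 to 14.30. The array of excess pig 11 stood apart from the rest: it correlated with the others at 0.904 to 0.956, whereas the other 8 arrays correlated with each other at 0.977 to 0.992. On it, the 1378 brightest probe sets, 5 percent of the array, had a mean deviation of -0.172 from the mean of the 9 arrays. Results that rest on this array are therefore given with and without it. The muscle identity of the samples was plain in the fast fibre markers, of which 8 of 12 were measured, with mean levels from 10.88 for the calcium buffer PVALB to 13.60 for the myosin light chain MYL1. By contrast, the 5 measured macrophage and blood markers lay between 4.29 and 6.00, near the median of all values, 5.06.

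The 8 enzymes were among the brightest probe sets on the array, and 6 of them varied little between pigs in absolute terms. Their means over the 9 pigs were 13.72 for GAPDH, 13.49 for LDHA, 13.25 for PYGM, 13.04 for ENO3, 12.96 for TPI1, 12.40 for PGAM2, 10.57 for GYS1 and 9.88 for PHKG1. These are probe set brightnesses, which do not rank the transcripts, since probe sets differ in how strongly they bind. All 8 lay in the brightest 5 percent of probe sets, and GAPDH was the tenth brightest of all (rank 10). GAPDH, the dehydrogenase often used as a reference gene, spanned only 0.071 between its lowest pig, 13.68, and its highest, 13.75. Its SD within diets, 0.019, was the smallest of the 43 probe sets with a mean level between 13 and 14. TPI1 and PGAM2 were also quiet for their level: 2 and 7 of the 146 probe sets between 12 and 13 had a smaller SD. PYGM, ENO3 and LDHA were less unusual for their level: 15, 13 and 9 of the 43 probe sets between 13 and 14 had a smaller SD. GYS1 and PHKG1 spanned 0.492 and 0.514 between pigs, and their SDs lay at percentiles 44.0 and 45.6 within the brightest 5 percent. Of the probe sets of their own level, 34.5% and 21.2% had a smaller SD. Bright probe sets spread less in general, with a median SD of 0.0969 between 13 and 14 against 0.282 between 7 and 8. Whether these probe sets were close to saturation was not tested.

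**Figure D1:**
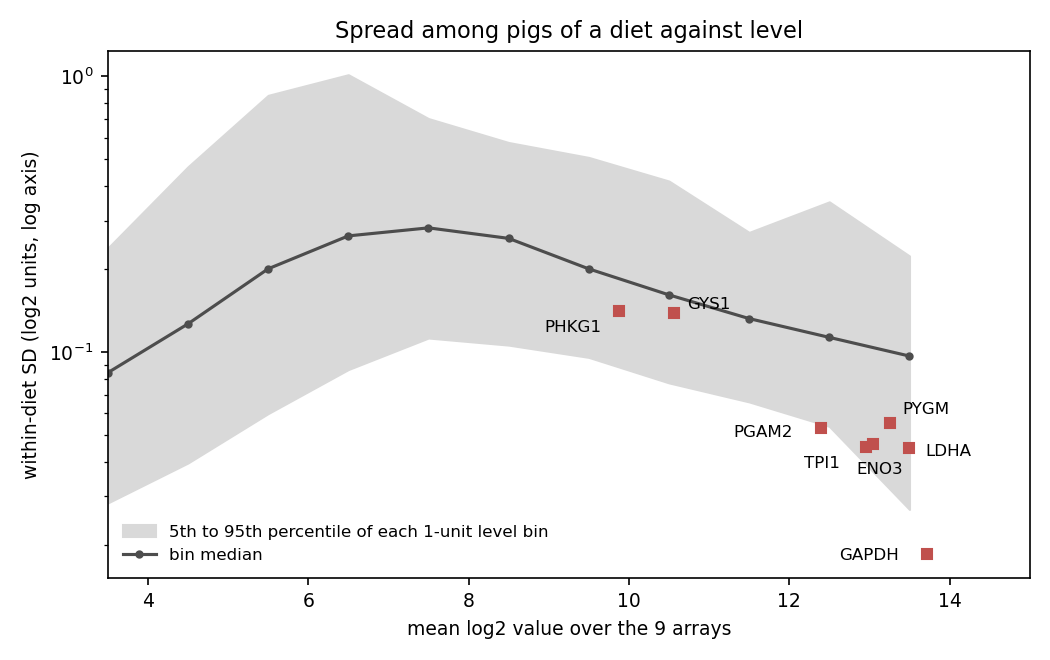
Spread within diets (SD in log2 units, log axis) against the mean log2 value over the 9 arrays. The line is the median and the grey band the 5th to 95th percentile of all probe sets in bins of 1 log2 unit (bins of at least 20 probe sets), and the red squares are the 8 enzymes, of which GAPDH has an SD of 0.019 and lies below the band.

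Glycogen synthase, GYS1, which extends the glycogen chain, had the largest difference of the 8 enzymes. GYS1 read 10.39, 10.44 and 10.55 in the deficient pigs, 10.62, 10.88 and 10.54 in the adequate pigs, and 10.66, 10.62 and 10.40 in the excess pigs. The deficient pigs were the lowest group, with a mean of 10.46 ± 0.08 (SD, n = 3), against 10.68 ± 0.18 in adequate and 10.56 ± 0.14 in excess pigs. Deficient pig 3 lay level with adequate pig 7, so the groups touch. The log2 difference between deficient and adequate pigs was -0.22 ± 0.11 (SE), a level 1.17-fold lower, with a 95% interval of -0.48 to 0.039. It was -0.12 without adequate pig 6, which was the highest of the 9 pigs. Excess minus adequate was -0.12 ± 0.11, or -0.041 without excess pig 11 and -0.020 without adequate pig 6.

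Glycogen phosphorylase, PYGM, which releases glucose 1-phosphate from glycogen, differed little between diets. PYGM read 13.22, 13.27 and 13.15 in deficient pigs, 13.20, 13.33 and 13.29 in adequate pigs, and 13.30, 13.28 and 13.25 in excess pigs. All 3 groups overlapped. The deficient mean was 13.22 ± 0.06, the adequate mean 13.27 ± 0.07 and the excess mean 13.28 ± 0.03. Deficient minus adequate was -0.056 ± 0.064, and excess minus adequate 0.0045 ± 0.064, with intervals of -0.20 to 0.092 and -0.14 to 0.15.

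PHKG1 encodes the catalytic subunit of muscle phosphorylase kinase, the enzyme that activates phosphorylase when calcium rises. It read 9.84, 10.04 and 9.97 in deficient pigs, 9.89, 10.01 and 9.89 in adequate pigs, and 9.90, 9.88 and 9.52 in excess pigs. Excess pig 11 was the lowest of the 9, and the other 8 pigs lay within a narrow band. Excess minus adequate was -0.16 ± 0.11, and -0.043 without excess pig 11. The second probe set of the gene showed the same low pig: it read 8.51 in excess pig 11 and from 9.01 to 9.36 in the other 8. On that probe set excess minus adequate was -0.31 ± 0.16, or -0.13 without excess pig 11, while deficient minus adequate was -0.046 ± 0.16, against 0.018 ± 0.11 on the brighter one. Probe sets of PHKG1's level read lower in excess pig 11 as a rule: between levels 9 and 10, the median difference between its values and the mean of excess pigs 9 and 10 was -0.37.

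Triosephosphate isomerase, TPI1, which interconverts the pair of triose phosphates that aldolase makes, was the only one of the 8 enzymes to separate the deficient pigs from both other diets. TPI1 read 12.92, 12.88 and 12.83 in deficient pigs, 12.94, 13.04 and 13.05 in adequate pigs, and 13.01, 12.98 and 13.00 in excess pigs. Every deficient pig lay below every other pig, although deficient pig 1 came close to adequate pig 5. The means were 12.88 ± 0.05 in deficient, 13.01 ± 0.06 in adequate and 13.00 ± 0.02 in excess pigs. Deficient minus adequate was -0.14 ± 0.06, a level 1.10-fold lower (interval -0.27 to 0.0019), and it ran from -0.17 to -0.11 when each pig in turn was left out. Deficient minus excess was -0.12 ± 0.06, a level 1.09-fold lower. Neither passed limma's threshold over all probe sets (adjusted p = 1.00 and 0.872), and an exact two-sided permutation test gave 0.1 for both, the smallest p that 3 pigs against 3 can give.

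Glyceraldehyde 3-phosphate dehydrogenase, GAPDH, which makes the NADH of glycolysis, differed far less between diets. GAPDH read 13.69, 13.68 and 13.71 in deficient pigs, 13.70, 13.75 and 13.72 in adequate pigs, and 13.73, 13.75 and 13.72 in excess pigs. The deficient pigs lay below all excess pigs and overlapped the adequate pigs. Deficient minus excess was -0.039 ± 0.051 and deficient minus adequate -0.033 ± 0.051. On the scale of the array, GAPDH thus differed between diet means by at most 1.03-fold, with intervals that run no lower than -0.16 and no higher than 0.13.

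PGAM2, ENO3 and LDHA carry out the later steps. PGAM2, the muscle phosphoglycerate mutase, read 12.38, 12.44 and 12.28 in deficient pigs, 12.38, 12.44 and 12.41 in adequate pigs, and 12.40, 12.40 and 12.43 in excess pigs. Only deficient pig 3 stood below the rest, and without it deficient minus adequate was -0.00058 in place of -0.046 ± 0.063. ENO3, the muscle enolase, read 12.98, 13.08 and 13.03 in deficient pigs, 13.03, 13.12 and 13.06 in adequate pigs, and 13.06, 13.06 and 12.98 in excess pigs. The 3 diets overlapped throughout. Both unbalanced diets averaged slightly under the adequate one, by -0.040 ± 0.060 in deficient and -0.039 ± 0.060 in excess pigs. Without excess pig 11, the lowest pig for ENO3, excess minus adequate was -0.011.

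LDHA, the lactate dehydrogenase subunit of fast muscle, read 13.46, 13.51 and 13.48 in deficient pigs, 13.55, 13.52 and 13.51 in adequate pigs, and 13.52, 13.51 and 13.39 in excess pigs. The value 13.5072 was shared exactly by 3 pigs, 1 of each diet. Repeated values are common in the deposited table, where 41.3% of probe sets hold at least 1 value found in more than 1 pig. Of the brightest 1378 probe sets 17.6% do. These shares count any repeat, also one between only 2 pigs. Deficient minus adequate was -0.046 ± 0.059 and excess minus adequate -0.051 ± 0.059, or -0.011 without excess pig 11, its lowest pig.

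**Figure D2:**
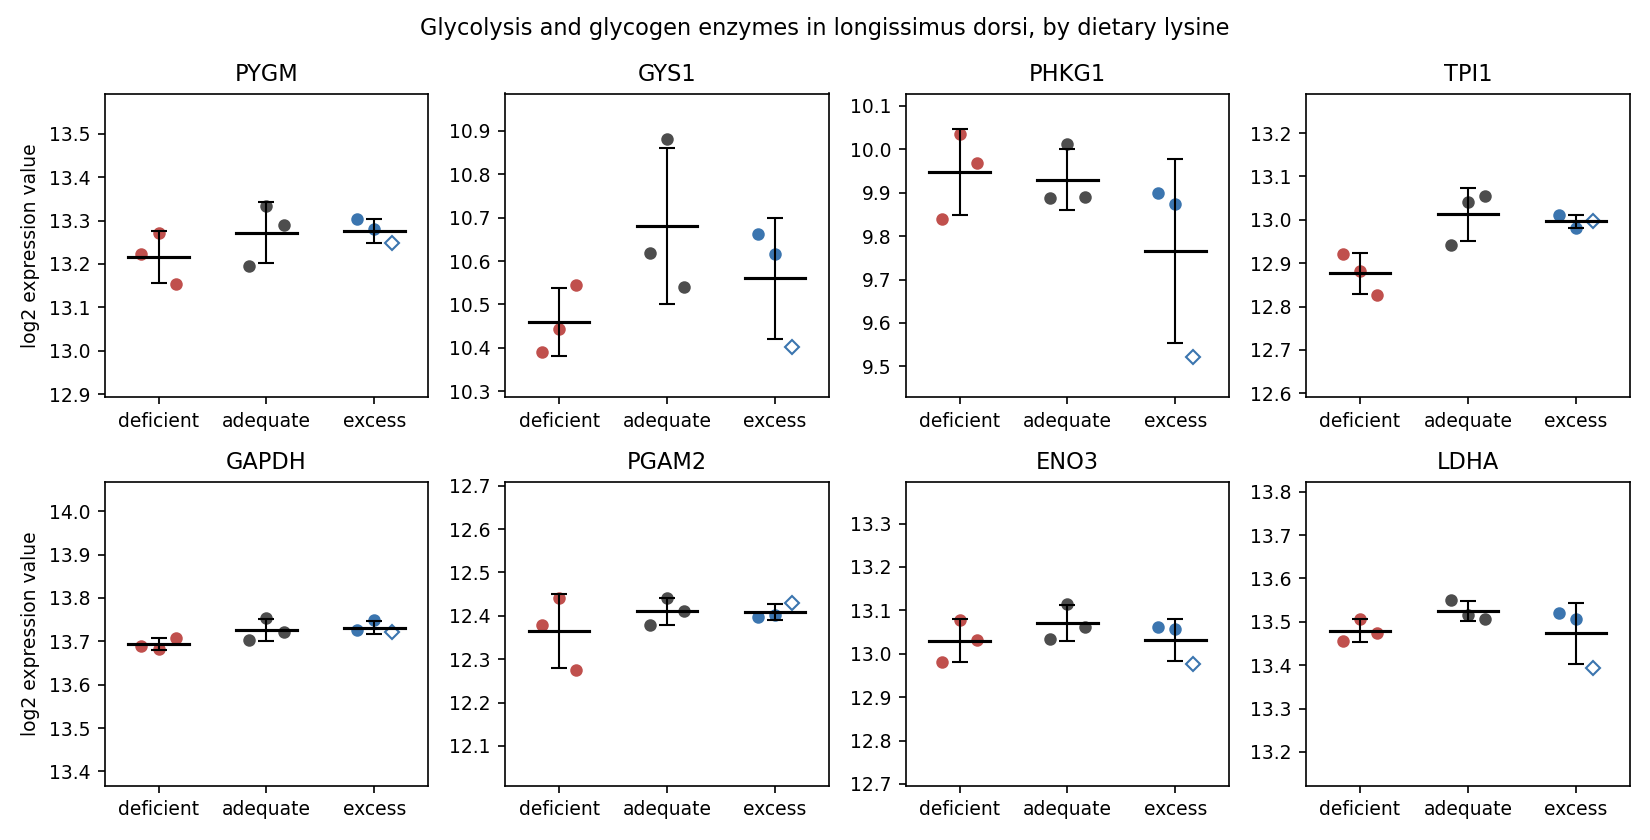
Log2 expression value of each enzyme in each pig, by diet from low to high lysine. Points are pigs, the open diamond is excess pig 11, bars are the diet mean and error bars the SD (n = 3). Every panel spans 0.7 log2 units, and the deficient pigs lie below all others only for TPI1.

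Set side by side, the enzymes differed little between diets. In deficient against adequate pigs 7 of the 8 enzymes were lower, with PHKG1 the exception (higher by 0.018), and the median log2 difference was -0.046. Of all probe sets 47% were lower and 52.9% higher in this comparison, and their median difference was 0.0071. No enzyme passed limma's adjusted p of 0.05, and neither did any other probe set (0% of 27558). No enzyme reached an unadjusted p below 0.05 either, the smallest being 0.0525 for TPI1 and 0.0851 for GYS1. TPI1 alone lay fully below the adequate pigs, 1 of 8 enzymes, where 3.07% of probe sets did so and 3.77% lay fully above. Of the 1378 probe sets of the brightest 5 percent, where all 8 enzymes lie, 697 were lower in this comparison. Of these 1378, 100 lay fully below the adequate pigs and 90 fully above.

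In excess against adequate pigs 6 of the 8 enzymes were lower, where 49.8% of all probe sets were lower and 50.2% higher, and the median was -0.028. GAPDH and PYGM were the exceptions, at 0.0063 and 0.0045. Both turned negative, and PGAM2 positive, when quantile normalization or cyclic loess was applied to the values, so that these 3 have no settled direction. No enzyme was fully separated from the adequate pigs, where 3.84% of probe sets lay fully below and 3.2% fully above, and the adjusted p-values ran from 0.757 to 0.996 in limma (0% of probe sets passed). Of the brightest 5 percent of probe sets, where all 8 enzymes lie, 1044 of 1378 were lower in this comparison, with a median of -0.076. The enzyme count is thus near that of this set as a whole, though most of the enzymes are brighter than most of it. Values of excess pig 11 minus the mean of excess pigs 9 and 10 had a median of -0.22 in the set. That median was -0.11 between levels 12 and 13 and 0.028 between 13 and 14. Without excess pig 11, 718 of the 1378 were lower, with a median of -0.0039. The enzymes' median without that pig was -0.012.

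In deficient against excess pigs 6 of 8 enzymes were lower, where 50% of all probe sets were, with a median of -0.042. Without excess pig 11 it was 7 of 8 with a median of -0.039. Of the brightest 5 percent of probe sets 457 of 1378 were lower, and 733 without that pig. TPI1 and GAPDH lay fully below the excess pigs, 2 of 8 enzymes, where 2.19% of probe sets did so and 4.28% lay fully above. Of the brightest 1378, 44 lay fully below and 170 fully above. PHKG1 went the other way, by 0.18 ± 0.11, and by 0.061 without excess pig 11. The adjusted p-values in limma ran from 0.872 to 0.997, and again 0% of probe sets passed. Each diet serves in 2 of the 3 comparisons, so these counts share pigs. Limma's F statistic over all 3 diets gave adjusted p-values from 0.933 to 0.945, with 0 enzymes at an unadjusted p below 0.05 and 2.54% of all probe sets.

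The intervals set the size that could have been missed. For PYGM, TPI1, GAPDH, PGAM2, ENO3 and LDHA the 95% intervals of the 3 comparisons together ran from -0.27 to 0.15 on the log2 scale. For GYS1 they reached -0.48 and for PHKG1 0.45. These intervals hold for values on the array and are not adjusted for the number of comparisons. They rest on limma's moderated SE, which draws each SD within diets toward a prior SD of 0.130. For GAPDH, with an SD within diets of 0.019, they are thus wider than its own spread among pigs would give.

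**Figure D3:**
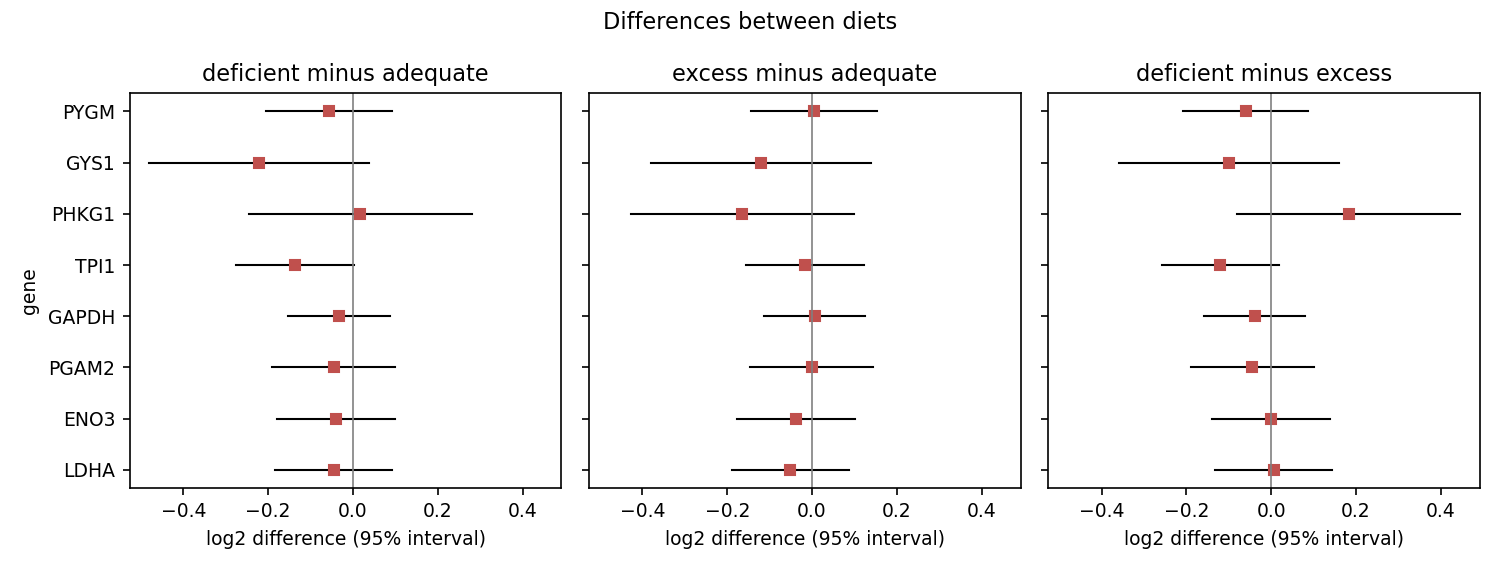
Log2 difference of each enzyme in the 3 comparisons (squares), with 95% intervals from the limma fit to 9 arrays (lines). Each interval includes 0, and GYS1 at -0.22 in deficient minus adequate pigs is the farthest from it.

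Fibre type markers differed beside the enzymes, and none of those lists held a call in limma. Of the fast fibre markers 8 of 8 were lower in deficient than in adequate pigs, with a median of -0.084. The mean over these markers ran from 12.64 to 12.78 in deficient, from 12.83 to 12.89 in adequate and from 12.80 to 12.85 in excess pigs. The deficient list means thus lay below both. Marker by marker, 6 were lower and 2 higher in deficient than in excess pigs, with a median of -0.035 and a lowest difference of -0.46. Of the 5 measured slow fibre markers 4 were higher in deficient than in adequate pigs (median 0.22), and their mean ran from 11.50 to 11.68 in deficient, 11.35 to 11.49 in adequate and 11.55 to 11.90 in excess pigs. All 8 fibroblast and matrix markers were lower in deficient than in adequate pigs, with list means of 9.43 to 9.93 in deficient, 10.01 to 10.35 in adequate and 9.37 to 9.94 in excess pigs. Of 8 adipocyte markers 7 were higher, at 7.08 to 7.29 in deficient, 6.63 to 7.11 in adequate and 6.46 to 6.63 in excess pigs. The part of these cell types in the enzyme values was not tested.

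Most pairs of the enzymes ran in parallel over the pigs. Of their 28 pairs, 25 had a positive Pearson r over the 9 pigs (median 0.46), and 26 did over the 8 pigs without excess pig 11 (median 0.52). Over those 8 pigs 50.6% of all pairs of the brightest 5 percent of probe sets were positive, with a median r of 0.0074. With all 9 pigs it was 68.3% with a median of 0.24. Within diets, after the diet means were removed, 21 pairs of the enzymes were positive and 7 negative over 9 pigs (75% positive, median 0.39), near the 68.7% of pairs of the brightest probe sets. Without excess pig 11 it was again 21 pairs (median 0.31), beside 51.2% of those pairs. TPI1 and GAPDH, at 0.67 over 9 pigs, had 0.15 within diets, and TPI1 and LDHA had 0.10 and -0.29. PYGM and PGAM2 were the closest pair (r = 0.81 over 9 pigs and 0.85 over 8), then PYGM and TPI1 (0.78 and 0.80), while PHKG1 and TPI1 ran slightly opposite (-0.26 and -0.23). PHKG1 and LDHA, at 0.76 over 9 pigs, had 0.13 over 8. These are descriptions: values of a pig share an array and its normalization, and the differences they rest on are small. By pig, adequate pig 6 and excess pig 9 lay above the mean of the 9 for all 8 enzymes. Adequate pig 6 was the highest pig for 4 of them. Deficient pig 1 lay below that mean for all 8 and deficient pig 3 for 7. Deficient pig 2 lay below it for only 3 and was the highest pig for 2. Excess pig 11 lay below it for 5 and had the lowest mean deviation of the 9 pigs, -0.078.

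**Figure D4:**
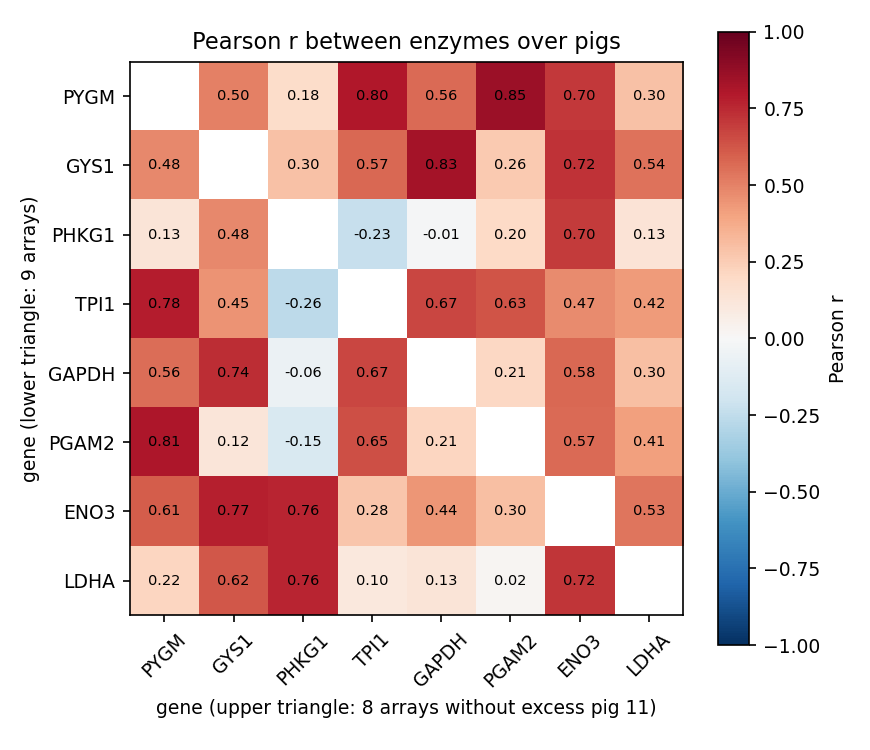
Pearson r between each pair of the 8 enzymes over pigs. The lower triangle uses 9 arrays and the upper triangle the 8 arrays without excess pig 11, and the strongest pair, PYGM with PGAM2, has r = 0.81 and 0.85.

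Among 12353 other named genes, those most like the mean of the 8 enzymes over the 9 pigs were KLHL23 (r = 0.97), ARIH2 (0.96), MTMR2, SLC25A37, STX1A, BTBD3, METTL21A and RDH14 (0.93 for the last). KLHL23, MTMR2, SLC25A37 and ARIH2 were again among the 8 nearest without excess pig 11, beside SSX2IP, FAM53B, ATAD2 and APOBEC2. These values are a description over pigs that share arrays and normalization, and carry no test.

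The wider pathway was described from 90 further genes, of which 64 were measured. In deficient against adequate pigs 32 were lower and 32 higher (median 0.00058), in excess against adequate pigs 51 were lower and 13 higher (-0.086, and 35 lower with a median of -0.012 without excess pig 11), and in deficient against excess pigs 16 were lower and 48 higher (0.080, and 35 lower with -0.039 without that pig). No gene of them passed limma's threshold. At an unadjusted p below 0.05 there was 1 gene higher in deficient than in adequate pigs (0.842% of probe sets) and 0 lower (1.01%). In excess against adequate pigs there were 2 lower (2.21%) and 0 higher (1.35%), and in deficient against excess pigs 6 higher (2.84%) and 0 lower (1.23%). Bright probe sets reached this p in limma more often in deficient against excess pigs: of the brightest 1378, 128 were higher and 32 lower. The 6 genes are therefore not read as a trait of the pathway, though some of the 64 genes are dimmer than those probe sets.

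At the entry of glucose into the pathway, the 4 measured genes of hexose entry averaged lower in deficient than in adequate pigs, with differences from -0.15 to -0.085. The SEs ran from 0.11 for GPI to 0.36 for HK2, and the pigs of these diets overlapped for each gene. Of 7 other glycolytic genes 5 were lower, and all 7 were lower in excess than in adequate pigs. ENO1, the enolase of most other tissues, was chosen here after its values were seen. It read 8.35, 8.003 and 8.74 in deficient pigs, 9.10, 8.89 and 8.51 in adequate pigs, and 8.76, 8.49 and 7.43 in excess pigs, with overlap between all diets. Deficient minus adequate was -0.47 ± 0.36, and excess minus adequate -0.60 ± 0.36, or -0.20 without excess pig 11. ALDOC, an aldolase best known from brain, separated deficient from excess pigs. It read 6.56, 6.41 and 6.42 in deficient pigs, against 6.13, 6.21 and 5.77 in excess pigs, a log2 difference of 0.43 ± 0.17 (unadjusted p = 0.0338 and adjusted p = 0.872 in limma), or 0.29 without excess pig 11.

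The widest pathway difference between deficient and excess pigs, and between deficient and adequate pigs, was that of a regulator of glycogen, PPP1R3B. PPP1R3C and PPP1R3B are glycogen-targeting subunits, which bring protein phosphatase 1 to glycogen, where it turns the synthase on. PPP1R3C read 9.29, 9.46 and 9.70 in deficient pigs, 9.40, 8.49 and 8.85 in adequate pigs, and 8.95, 8.32 and 7.64 in excess pigs. All deficient pigs lay above all excess pigs, with adequate pigs between and overlapping both. Deficient minus excess was 1.18 ± 0.35, a level 2.27-fold higher (unadjusted p = 0.0102, adjusted p = 0.872 in limma), and 0.85 without excess pig 11. PPP1R3B read 9.13, 8.82 and 9.56 in deficient pigs, 9.02, 8.32 and 7.16 in adequate pigs, and 8.67, 7.64 and 6.94 in excess pigs. Again the deficient and excess pigs did not overlap. The deficient and adequate pigs did, as adequate pig 5 (9.02) lay above deficient pig 2 (8.82). Deficient minus adequate was 1.00, and 0.50 without adequate pig 7. Deficient minus excess was 1.42 ± 0.56, a level 2.68-fold higher (unadjusted p = 0.0349, adjusted p = 0.872 in limma), 1.02 without excess pig 11 and 0.87 with array SD as a covariate. PPP1R3A, the subunit typical of skeletal muscle, had a mean level of 12.23 and a deficient minus excess difference of 0.13 ± 0.09, and its groups overlapped. Of all 11 measured genes of glycogen regulation, 10 were higher in deficient than in excess pigs, but without excess pig 11 4 were lower, and the median of 0.17 became 0.038.

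In glycogen breakdown, PHKG2, the catalytic phosphorylase kinase subunit known from liver, read 4.74, 4.72 and 4.56 in excess pigs, against 5.05, 5.06 and 4.88 in adequate pigs, without overlap (-0.33 ± 0.13, unadjusted p = 0.0414, adjusted p = 0.757 in limma). Its mean of 4.79 is under the array-wide median, and no fold is given, and its other probe set differed by -0.054. PFKFB3 makes the fructose 2,6-bisphosphate that drives phosphofructokinase, and was chosen after its values were seen. It varied widely within diets, from 8.81 to 10.57 in deficient, 9.62 to 9.81 in adequate and 8.35 to 9.77 in excess pigs. Excess minus adequate was -0.83 ± 0.50, the widest pathway difference in that comparison, and deficient minus excess was 0.91 ± 0.50, with overlap in both. Without excess pig 11 they were -0.55 and 0.63. Deficient minus adequate was 0.081 ± 0.50 and turned to -0.30 without deficient pig 3.

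Around pyruvate and the mitochondrion, GPD2 was the 1 gene past an unadjusted p of 0.05 in deficient against adequate pigs. It encodes the mitochondrial glycerol 3-phosphate dehydrogenase, which passes electrons of glycolytic NADH to the respiratory chain. GPD2 read 10.10, 10.06 and 10.07 in deficient pigs, 9.84, 9.78 and 9.90 in adequate pigs, and 9.98, 9.79 and 9.92 in excess pigs. Every deficient pig lay above every other pig. Deficient minus adequate was 0.24 ± 0.07, a level 1.18-fold higher (unadjusted p = 0.00879, adjusted p = 1.00 in limma), and it ran from 0.21 to 0.27 as each pig was left out. Deficient minus excess was 0.18 ± 0.07 (unadjusted p = 0.0322 in limma), but 0.11 with quantile normalization and 0.061 with cyclic loess (unadjusted p = 0.616). PDP1, the phosphatase that activates pyruvate dehydrogenase, was 1.16-fold higher in deficient than in excess pigs (0.21 ± 0.09), and PDK3, a kinase that inactivates it, was 1.22-fold lower in excess than in adequate pigs (-0.29 ± 0.12), both without overlap and with adjusted p-values of 0.872 and 0.757 in limma. With cyclic loess these became 0.088 for PDP1 and -0.12 for PDK3, and with quantile normalization 0.12 and -0.17. Of the 13 measured transcription factors tied to these genes, MEF2A, a factor of muscle gene control, was 1.13-fold higher in deficient than in excess pigs (0.18 ± 0.07, adjusted p = 0.872 in limma), without overlap, and the difference was 0.11 with cyclic loess.

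**Figure D5:**
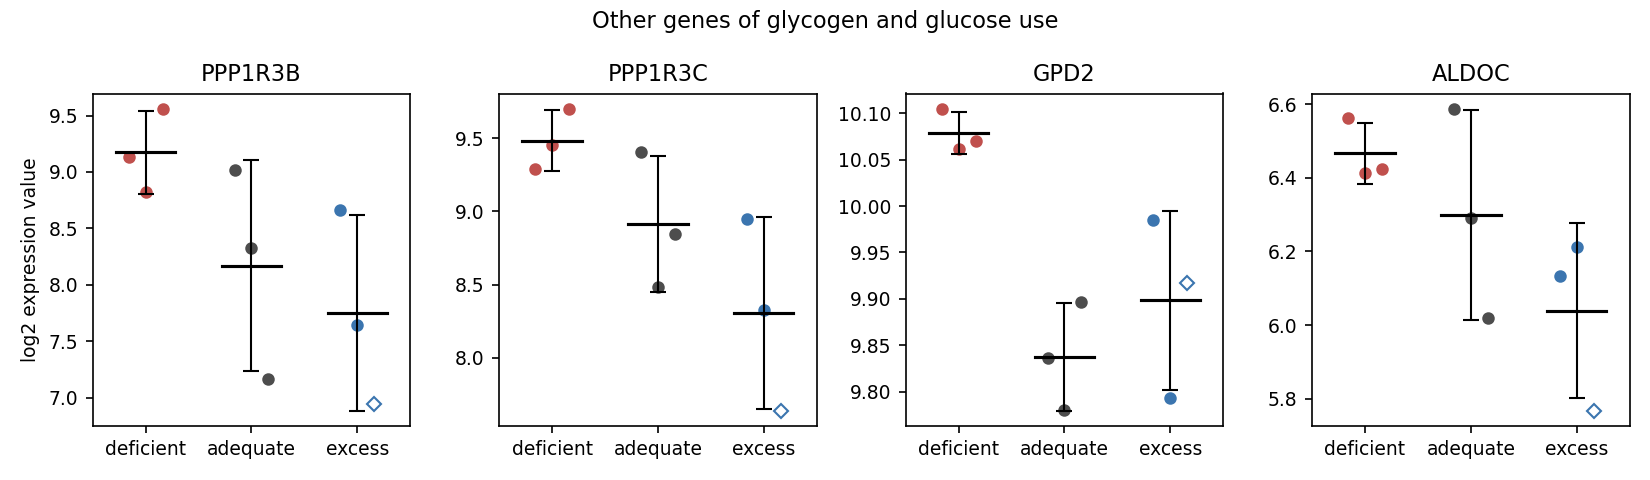
Log2 expression value in each pig of PPP1R3B, PPP1R3C, GPD2 and ALDOC, by diet from low to high lysine, with diet mean and SD (n = 3) and excess pig 11 as an open diamond. The axes differ between panels. All deficient pigs lie above all excess pigs in each panel, and for GPD2 above all adequate pigs too.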

How the data were processed

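The deposited table holds the authors' processed values for 27558 probe sets, taken as log2. The submitters' processing notes name GCOS 1.2 and Partek only; how background, summarization and normalization were handled is not stated there. Symbols came from the platform annotation: 13323 probe sets had 1 symbol, 357 several and 13878 were unnamed here, and Entrez IDs (12968 matched) updated 7 symbols. All probe sets on the 9 arrays entered 1 linear model of diet (limma 3.58.1 under R 4.3.3, lmFit and eBayes), with two-sided tests and Benjamini-Hochberg adjustment over all probe sets and a threshold of 0.05. It was tested on simulated data. Replicates were separate pigs, and 3 per diet limit the precision. Errors are limma's moderated SE of differences and the plain SD of groups. For each gene the probe set with the highest mean was used.

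The enzymes, lists and tests were chosen with earlier results of these data known. Named beside the enzymes were pathway genes without overlap between diets and an unadjusted p below 0.05 (up to 6 per comparison and direction), and the 8 genes most like the enzymes' mean. PPP1R3A, ENO1, PFKFB3 and the markers named with values were added after their values were seen. Coordinates and promoter sequences were not used here, so a planned motif search was not run.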

Additional observations from a re-analysis of the deposited data

How the results depend on the processing

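No enzyme passed an adjusted p of 0.05 in limma in any of the 18 alternatives. These included quantile normalization of the deposited values, cyclic loess, array SD as a covariate and array quality weights. Others were the 6 arrays of a comparison alone, a robust prior with an intensity trend, and the mean over probe sets. The rest were the dimmest 25 percent left out, probe sets with 1 symbol only, and each of the 9 pigs left out. The smallest adjusted p among them was 0.326. The F test, run in 17 of them, called 0 enzymes. The enzymes' median difference ran from -0.074 to -0.028 in deficient minus adequate, from -0.050 to -0.0082 in excess minus adequate and from -0.058 to 0.0052 in deficient minus excess, where quantile normalization turned its sign. Of the 24 enzyme differences 15 never turned sign, but PYGM in deficient minus adequate fell to -1.8e-15, no difference, with quantile normalization. The other 14 kept their direction throughout, among them those of GYS1 and TPI1 in deficient minus adequate. Their unadjusted p in limma crossed 0.05 in some alternatives, with 0.0350 for TPI1 and 0.0370 for GYS1 with cyclic loess.

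Signs turned as follows. With quantile normalization excess minus adequate became -0.033 for PYGM, -0.073 for GAPDH, 0.033 for PGAM2 and 0.0075 for PDP1, and deficient minus excess became 0.033 for PYGM and 0.018 for ENO3. With cyclic loess the same excess differences became -0.015 for PYGM, -0.036 for GAPDH, 0.020 for PGAM2 and 0.043 for PDP1, and deficient minus excess of ENO1 became -0.022. With the covariate PPP1R3B became 0.27 in excess minus adequate, and deficient minus excess became -0.029 for LDHA, -0.024 for PHKG2 and -0.29 for ENO1. With array quality weights deficient minus excess became -0.0079 for LDHA, -0.029 for PHKG2 and -0.19 for ENO1, and deficient minus adequate of PFKFB3 became -0.015. PHKG1 in deficient minus adequate became -0.014 as the mean of its probe sets. The cause was not tested.

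With 1 pig left out at a time, signs also turned. Deficient minus adequate ran from -0.026 to 0.072 for PHKG1, from -0.089 to 0.10 for PDK3 and from -0.30 to 0.58 for PFKFB3. Excess minus adequate ran from -0.034 to 0.035 for PYGM, -0.052 to 0.0043 for TPI1, -0.0048 to 0.020 for GAPDH, -0.017 to 0.014 for PGAM2 and -0.92 to 0.0082 for PPP1R3B. Deficient minus excess ran from -0.083 to 0.00052 for PGAM2, -0.029 to 0.024 for ENO3, -0.034 to 0.029 for LDHA, -0.12 to 0.14 for PHKG2 and -0.26 to 0.40 for ENO1. Over the whole table limma called 0 probe sets in each comparison, 1 with array quality weights (deficient minus adequate) and 1 among probe sets with 1 symbol only (deficient minus excess). No paired analysis was possible because the diets share no pig number. With 3 pigs per diet, 1 pig decided several of the values above.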
